A study of Mus musculus with 2 samples.

Results

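Cytochromes P450 are heme enzymes of the endoplasmic reticulum that insert an oxygen atom into fat-soluble molecules, using electrons passed on by P450 reductase (Por). Families 1 to 3 oxidize mainly drugs, toxins and steroids, and family 4 mainly fatty acids. In liver they are made by hepatocytes in patterns set by position in the lobule, by sex and by receptors that sense foreign compounds and lipids. The members described here are all gene symbols of mouse P450 families 1 to 4 with at least 20 unique molecular identifiers (UMIs, 1 per captured transcript 3′ end) summed over both libraries. They number 52 of 80 symbols of these families, among 32285 features. The other 28 were under that minimum, 10 of them without a UMI. The nearest outside were Cyp4f39 (12 UMIs), Cyp2c39 (16) and Cyp2j8 (18), and the nearest inside Cyp3a57 (23), Cyp2c55 (24) and Cyp2c37 (40).

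Cells of dissected liver tumors were profiled by droplet single-cell RNA sequencing, all from mice of the strain C57BL/6J, with 1 library for wild-type mice (WT) and 1 for mice with a hepatocyte knockout of Fabp5, a fatty acid binding protein (FABP5 hKO, here hKO). Both groups were littermates that received tamoxifen (100 mg/kg, 5 injections 3 days apart, each after 16 h of fasting) at 6 to 8 weeks of age. From 2 weeks after the last injection they ate a CD-HFD, a choline-deficient high-fat diet, for 15 months. The knockout uses Alb-CRE-ER, a Cre recombinase driven by the albumin promoter and switched on by tamoxifen, so it depends on cells that made albumin at the time of injection. The labels do not say whether WT mice carried the Cre. Each library pooled 2 to 3 hepatocellular carcinomas that the labels do not separate. With 1 library per group no test was possible, and every interval below is a 95% interval for counting error only.

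After filtering, 9459 of 14289 WT barcodes and 10402 of 18657 hKO barcodes were kept as cells, from libraries of 58772330 and 68010317 UMIs. Over the limit of 25% mitochondrial UMIs lay 18.5% of WT and 36.8% of hKO barcodes. The libraries shared 73 barcode sequences, 29 of them among kept cells. In hepatocyte-like cells Fabp5 stood at 102 CPM (UMIs per 1000000 UMIs of those cells, 79 UMIs) in WT and 13.8 CPM (51 UMIs) in hKO, a log2 ratio of -2.88. The sources used here do not name the deleted exons, so a 3′ count does not check it fully. The labels give no sex. Xist, the transcript of the inactive X chromosome, had 7 UMIs in the WT and 8 in the hKO library, against 17992 and 18611 UMIs of 4 Y-linked genes (Ddx3y, Eif2s3y, Kdm5d and Uty).

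Hepatocyte-like cells were found by clustering without any Cyp gene, so the P450 genes did not choose them. They numbered 346 in WT (778230 UMIs, median 1298.5 per cell) and 1106 in hKO (3704064 UMIs, median 1521.5), and 12 hepatocyte markers such as Alb and Apoa1 made up 7.48% and 8.35% of their UMIs. Different clusters held them in each library. In WT 322 cells were in cluster 25, led by Fabp1, Rgn and Akr1c18. In hKO 428 were in cluster 19, 381 in cluster 22 and 295 in cluster 26, which also held 21 WT cells. With 1 library per group, a cluster mostly of 1 library may be that library and not a cell state. A further cluster, 31, carried hepatocyte and cholangiocyte markers together and stayed unnamed (205 WT and 37 hKO cells). Clustered again, it gave a hepatocyte-named subcluster of 61 WT cells and 3 hKO cells (31-2), with a WT median of 28397 UMIs, 743% of the median of all kept WT cells. An unnamed subcluster (31-1) held 62 WT cells, with a median of 17672 UMIs. Cells this deep can be doublets. The doublet caller kept them, and their part in the values was not tested further. Because 31-2 holds more WT UMIs than the named clusters do, the comparisons of hepatocyte-like cells are given without it and with it. The second form was chosen after seeing the data.

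Promoters of 4 genes are shown first, since they belong to the genes on which the comparison turns: Cyp2a4 and Cyp2a5, the neighboring steroid and coumarin hydroxylases whose balance differed between the libraries, Cyp3a11, a drug-oxidizing enzyme, and Cyp2e1, an ethanol-oxidizing enzyme that went the other way in the named clusters. Each is the 250 bases before the transcription start in RefSeq, on GRCm38.p6, written 5′ to 3′ on the strand of the gene. Capitals mark TATAAA in all of them, and AGGTCA and CAAAGTCCA in Cyp3a11.
Cyp2a4: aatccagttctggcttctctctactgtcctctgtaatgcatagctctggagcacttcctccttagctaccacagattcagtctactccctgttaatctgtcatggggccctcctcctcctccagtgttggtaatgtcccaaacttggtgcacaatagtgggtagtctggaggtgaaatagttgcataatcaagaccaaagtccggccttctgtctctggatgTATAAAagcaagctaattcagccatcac
Cyp2a5: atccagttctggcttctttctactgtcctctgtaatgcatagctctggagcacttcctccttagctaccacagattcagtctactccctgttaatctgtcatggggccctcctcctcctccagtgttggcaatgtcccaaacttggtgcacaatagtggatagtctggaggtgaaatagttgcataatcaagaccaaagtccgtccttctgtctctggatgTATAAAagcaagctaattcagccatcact
Cyp3a11: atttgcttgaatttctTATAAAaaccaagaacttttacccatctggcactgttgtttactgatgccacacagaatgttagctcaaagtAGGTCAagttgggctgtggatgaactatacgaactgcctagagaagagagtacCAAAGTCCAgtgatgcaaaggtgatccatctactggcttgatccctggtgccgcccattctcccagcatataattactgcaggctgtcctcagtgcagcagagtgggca
Cyp2e1: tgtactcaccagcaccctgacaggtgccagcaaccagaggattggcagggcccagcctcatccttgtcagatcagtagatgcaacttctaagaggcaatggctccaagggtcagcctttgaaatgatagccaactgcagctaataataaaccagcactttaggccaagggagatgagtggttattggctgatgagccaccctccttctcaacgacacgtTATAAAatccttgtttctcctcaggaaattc
These windows are chr7:26306942-26307191 (plus strand), chr7:26835089-26835338 (plus strand), chr5:145879855-145880104 (minus strand) and chr7:140763569-140763818 (plus strand). Cyp2a4 and Cyp2a5 differ by 6 edits over 250 bases, an identity of 97.6%, with TATAAA starting 28 and 29 bases before the start. In the same alignment Cyp2a4 and Cyp2a12, of the same subfamily, share 47.6%, and Cyp2a4 and Cyp3a11 share 45.6%.

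A promoter was found for 42 of the 52 members. Of the 28 among them whose highest level in both libraries was in hepatocyte-like cells, 60.7% held TATAAA on either strand, against 3504 of 27025 promoters of the same length, or 13%. AGGTCA, the core that nuclear receptors bind, was in 32.1% against 13.8%. CAAAGTCCA, a site of the hepatocyte factor HNF4, was in 17.9% (Cyp3a11, Cyp2c67, Cyp2c68, Cyp2c40 and Cyp2c70) against 0.381%. The xenobiotic response element core TNGCGTG was in 3.57% against 4.16%. None of these motifs contains another. A match describes the letters and does not show that a factor binds there.

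P450 transcripts were scarcer in WT than in hKO hepatocyte-like cells. All members together gave 1016 UMIs in WT, 1306 CPM (1226 to 1388), and 44568 UMIs in hKO, 12032 CPM (11921 to 12144), a log2 ratio of 3.20 (3.11 to 3.30). With subcluster 31-2 the WT level was 5922 CPM (14964 UMIs), the hKO level 12006 CPM, and the ratio 1.02 (0.99 to 1.05). The direction was the same, and its size rested on which WT cells were counted. Across 14 other ways of choosing and scaling the cells, the addition of 31-2 among them, the ratio ran from 0.49, at a limit of 10% mitochondrial UMIs, to 3.74, when centred on the median gene. In 8 of them it lay between 1.01 and 1.28, among them 1 that left only 3 WT cells, so the larger value belongs to the named clusters and to settings that kept them.

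Of the 52 members 21 reached 50 CPM in a library. A member was called where it reached that level, its ratio was at least 1 in size on the log2 scale and its interval excluded 0. By this rule 19 were higher in hKO, Cyp2e1 was lower and Cyp2c68 was neither, while 20.3% of 2997 genes at the same level were higher and 32.3% lower. The median log2 ratio was 3.22 for these 21 and -0.53 for all such genes. With the subcluster 13 of 21 were higher, Cyp2c68 was lower and 7 were neither, against 10.9% higher and 35.7% lower of 3520 genes, with medians of 2.09 and -0.69. All 13 were also higher without it: Cyp2a5, Cyp2a12, Cyp2c29, Cyp2d9, Cyp2d10, Cyp2d26, Cyp2f2, Cyp2j5, Cyp3a11, Cyp3a25, Cyp4a10, Cyp4a12a and Cyp4f14. The 21 passed on the level in either library, so the 31 members under it are outside both counts. In the named clusters only Cyp2a4, Cyp2a5, Cyp2a12, Cyp2c68, Cyp2d10, Cyp2d26 and Cyp2e1 reached 50 CPM in WT. The others of the 21 passed through hKO alone, where they were high. The count of higher members and their median thus rest in part on that choice.

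**Figure D1:**
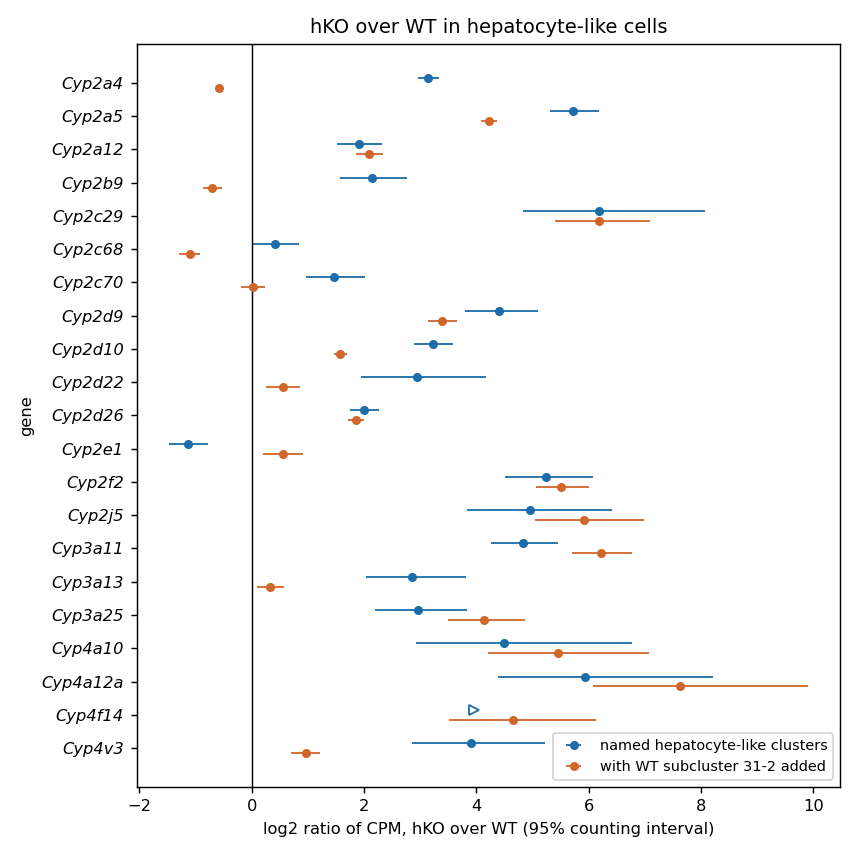
Log2 ratio of CPM in hKO over WT hepatocyte-like cells (x axis) for the 21 members at 50 CPM or more (y axis). Points are ratios with 95% counting intervals, blue for the named clusters and orange with WT subcluster 31-2 added, and the open triangle for Cyp4f14 is a lower bound. Cyp2a4 and Cyp2b9 lie right of 0 in blue and left of it in orange, Cyp2e1 the reverse, and Cyp2a5, Cyp3a11, Cyp2f2 and Cyp2c29 lie above 4 in both.

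The Cyp2a subfamily held the most UMIs, 33.6% of the members' sum in WT and 50.8% in hKO. Cyp2a5, which oxidizes coumarin and nicotine, had 46 UMIs (59.1 CPM) in WT and 11597 (3131 CPM) in hKO, a log2 ratio of 5.73 (5.31 to 6.18). Cyp2a4, a steroid 15-alpha-hydroxylase that is female-biased in liver, had 239 UMIs (307 CPM) in WT and 10055 (2715 CPM) in hKO, a ratio of 3.14. The pair parted when the subcluster was added. Cyp2a5 kept a ratio of 4.22 (167 CPM in WT), and Cyp2a4 went to -0.58 (4059 CPM in WT). Cyp2a12, a further steroid hydroxylase of the subfamily, had 55 UMIs (70.7 CPM) and 978 (264 CPM), with ratios of 1.90 and 2.09 without and with the subcluster.

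The balance of Cyp2a4 and Cyp2a5 was measured within each cell group, where total depth cancels. Cyp2a4 had 7.48 UMIs per Cyp2a5 UMI in WT cluster 25 (217 and 29 UMIs), 132 in 31-1 (4100 and 31) and 26.6 in 31-2 (10016 and 377). It had 0.927 in hKO cluster 19 (1445 and 1559), 0.811 in cluster 22 (5981 and 7378) and 0.988 in cluster 26 (2626 and 2658). These 3 WT values lay above the 3 hKO values, but groups of 1 library are not replicates. How often other gene pairs part in this way was not counted. The Cyp2a5 UMIs lay in 2.48% of cells of WT cluster 25 and in 12.9% of those of 31-1. The 21 WT cells of cluster 26 are the exception to that order, at 1.00 from 10 UMIs of each gene (0.374 to 2.68). In that cluster, which held cells of both libraries, the hKO value was 0.988. The same balance was read from free RNA, the hepatocyte transcripts that reach every droplet: in T-like, B-like and NK or innate lymphoid-like cells together it was 14.2 in WT (185 and 13 UMIs) and 0.772 in hKO (1681 and 2178). Over all barcodes before any filter it was 29.3 in WT (15467 and 527) and 0.815 in hKO (28029 and 34376), and in barcodes over the mitochondrial limit 12.5 and 0.804. Of the WT sums over all barcodes, 31-1 and 31-2 held 4100 and 10016 Cyp2a4 UMIs and 31 and 377 Cyp2a5 UMIs, so that value rests largely on them. The lymphoid-like cells and the barcodes over the mitochondrial limit do not include those cells, but free RNA from such cells can reach both sets. In these last 2 sets the difference between the libraries was present without choosing hepatocytes. Whether it was present apart from the RNA of 31-1 and 31-2 was not tested. The last 200 bases of the Cyp2a4 transcript used match Cyp2a5 transcripts at 97.0%, whereas those of Cyp2a5 match no member above 56.0%. How reads split between the pair is uncertain and was not tested.

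**Figure D2:**
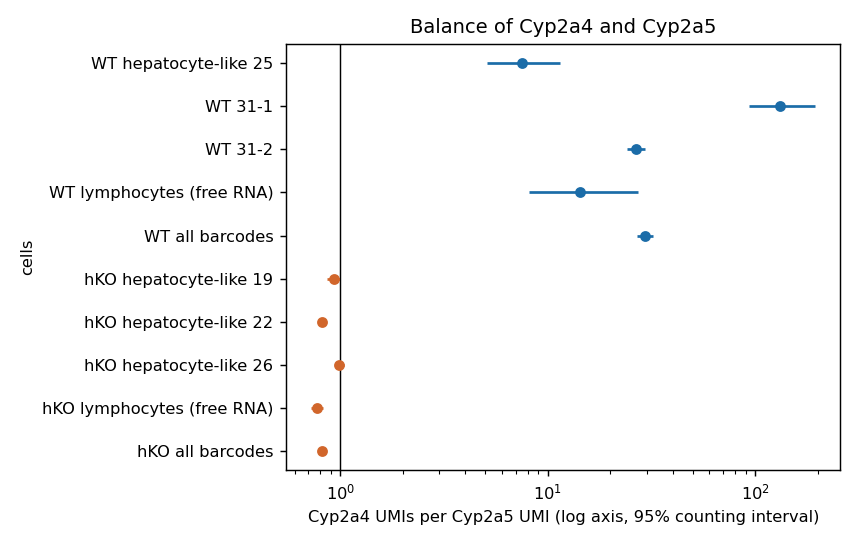
Cyp2a4 UMIs per Cyp2a5 UMI (x axis, log scale) in hepatocyte clusters, in lymphocytes, where both are free RNA, and in all barcodes (y axis). Points are ratios with 95% counting intervals, blue for WT and orange for hKO. WT points run from 7.48 to 132 and hKO points from 0.772 to 0.988.

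Cyp2b9, a female-biased enzyme of the phenobarbital-inducible Cyp2b subfamily, had 26 UMIs (33.4 CPM) in WT and 543 (147 CPM) in hKO, a log2 ratio of 2.13. With the subcluster the WT level was 239 CPM and the ratio -0.70, so its direction depended on those 61 WT cells. Cyp2a4 and Cyp2b9 were each lower in hKO in 8 of the other settings, the addition of 31-2 among them. In those 8 the WT cells held 1888980 to 4775180 UMIs, against 778230 in the named clusters. These settings draw on the same barcodes and are not independent checks. The other female-biased genes listed were low in both libraries: Cyp2b13 had 3 and 14 UMIs, Cyp2c40 had 2 and 24, Cyp2c69 had 1 and 5, and the remaining 4 had none. Of the 9 female-biased P450 genes listed, not all of them among the members, 2 reached the level, both higher in the named clusters and neither called with the subcluster. The male-biased members did not share that turn. Cyp2d9, a testosterone 16-alpha-hydroxylase, had 21 UMIs (27.0 CPM) in WT and 2118 (572 CPM) in hKO, with ratios of 4.41 and 3.39. Cyp4a12a, which makes the vasoactive lipid 20-HETE, had 3 UMIs (3.85 CPM) and 874 (236 CPM), with ratios of 5.94 and 7.63. All 3 WT UMIs lay in the 21 WT cells of cluster 26, and none in clusters 25, 31-1 or 31-2. The Y-linked counts above were alike in the libraries.

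The Cyp2c subfamily, which oxidizes drugs and makes epoxides of arachidonic acid, was mixed. Cyp2c29 had 4 UMIs (5.14 CPM) in WT and 1391 (376 CPM) in hKO, a log2 ratio of 6.19 in both forms. Cyp2c70, which makes the muricholic acids of mouse bile, had 35 UMIs (45.0 CPM) and 462 (125 CPM), a ratio of 1.47 that went to 0.02 with the subcluster. Cyp2c68 had 59 UMIs (75.8 CPM) and 374 (101 CPM), a ratio of 0.41 (0.01 to 0.83) that went to -1.11 (-1.30 to -0.91). Under the level, Cyp2c23 and Cyp2c67 were lower in hKO: Cyp2c23, an arachidonic acid epoxygenase, had 34 UMIs (43.7 CPM) and 24 (6.48 CPM), and Cyp2c67 had 17 UMIs and 20 UMIs (21.8 and 5.40 CPM). Their ratios were -2.75 and -2.02, and -1.80 and -2.07 with the subcluster. The sum of the 11 Cyp2c members had a ratio of 1.68, and 0.70 with the subcluster. The 3′ ends of Cyp2c40, Cyp2c67, Cyp2c68 and Cyp2c69 match another member at 95% or more, so their split is uncertain.

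The Cyp2d subfamily, the mouse relatives of human CYP2D6, was higher in hKO as a sum (245 and 8185 UMIs, log2 2.81, and 1.93 with the subcluster). Cyp2d10 had 70 UMIs (89.9 CPM) in WT and 3111 (840 CPM) in hKO, with ratios of 3.22 and 1.58. Cyp2d26 had 126 UMIs (162 CPM) and 2399 (648 CPM), with ratios of 2.00 and 1.86. Both forms put these genes on the same side with ratios above 1. Cyp2d22 had 8 UMIs (10.3 CPM) and 294 (79.4 CPM), with a ratio of 2.95 that went to 0.56.

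Cyp3a11, a mouse counterpart of human CYP3A4, had 25 UMIs (32.1 CPM) in WT and 3382 (913 CPM) in hKO, a log2 ratio of 4.83 (4.26 to 5.46). The ratio was 6.21 with the subcluster, where Cyp3a11 stood at 3.43 CPM in WT. Cyp3a25 had 14 UMIs (18.0 CPM) and 517 (140 CPM), with ratios of 2.96 and 4.14. Cyp3a13, which is also made in intestine, had 12 UMIs (15.4 CPM) and 412 (111 CPM), a ratio of 2.85 that went to 0.33. The family thus kept its direction as a sum (4.08 and 3.39), while the WT level of Cyp3a13 with the subcluster, 88.3 CPM, was near that of hKO, 111 CPM, and above the 12.3 CPM of Cyp3a11 there.

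A pair of position markers of the liver lobule is among the members. Cyp2f2, a naphthalene-oxidizing enzyme of periportal hepatocytes, had 15 UMIs (19.3 CPM) in WT and 2684 (725 CPM) in hKO, with log2 ratios of 5.23 and 5.51. Cyp2e1, of pericentral hepatocytes, had 99 UMIs (127 CPM) and 215 (58.0 CPM), a ratio of -1.13 (-1.48 to -0.77). With the subcluster Cyp2e1 stood at 39.6 CPM in WT and the ratio was 0.55, since the 61 added WT cells held 1 UMI of it. Cyp2e1 was higher in hKO in 7 of the other settings, the addition of 31-2 among them. By cluster, Cyp2e1 was at 132 CPM in WT cluster 25, 20.9, 22.5 and 84.8 CPM in hKO clusters 19, 22 and 26, and 3.29 CPM in WT 31-1. Of the 5 pericentral members listed 4 reached the level, with Cyp2c29, Cyp2a5 and Cyp3a11 higher and Cyp2e1 lower. Cyp1a2, the pericentral enzyme that oxidizes caffeine, was low in both (8 and 60 UMIs, 10.3 and 16.2 CPM), and its interval included 0. With the subcluster it had 9 and 60 UMIs (3.56 and 16.2 CPM) and a ratio of 2.18 (1.16 to 3.38), still under the level.

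Among the fatty acid enzymes, Cyp4a10, an omega-hydroxylase induced through PPAR alpha, had 3 UMIs (3.85 CPM) in WT and 321 (86.7 CPM) in hKO, with log2 ratios of 4.49 and 5.45. Cyp4a14, induced by the same receptor, had 0 and 35 UMIs (1 and 35 with the subcluster), and Cyp4a31 had 10 and 37 (12.8 and 9.99 CPM). Cyp4a32, the other member of that list, had 3 UMIs in each library, a ratio of -2.25 (-5.15 to 0.65). With the subcluster it had 31 and 3 UMIs and a ratio of -3.92 (-6.28 to -2.24), the opposite direction to Cyp4a10. Cyp4f14, which inactivates leukotriene B4, had 0 UMIs in WT, which allows up to 3 counts, and 223 (60.2 CPM) in hKO, at least 15.6-fold higher. With the subcluster it had 6 WT UMIs and a ratio of 4.66. Cyp4v3, an omega-hydroxylase of the retina and other tissues, had 7 UMIs (8.99 CPM) and 497 (134 CPM), a ratio of 3.90 that went to 0.96. Cyp2j5, an arachidonic acid epoxygenase, had 6 UMIs (7.71 CPM) and 891 (241 CPM), with ratios of 4.96 and 5.93. Cyp2j5 was not limited to hepatocyte-named cells: the cholangiocyte-named subcluster 31-3 of WT held it at 145 CPM (82 UMIs), with Cyp2j6 at 180 CPM and Cyp4f14 at 61.7 CPM.

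**Figure D3:**
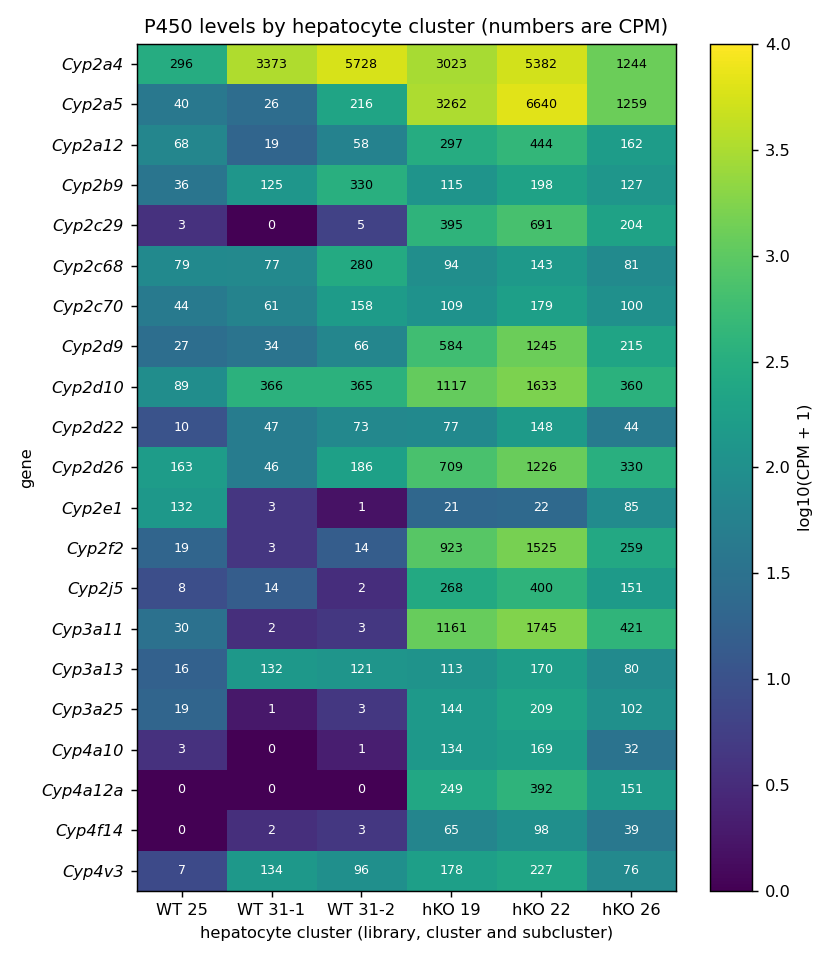
CPM of the 21 members at 50 CPM or more (rows) in 3 WT and 3 hKO hepatocyte groups (columns), colored by log10(CPM + 1) and printed in each cell. Subclusters 31-1 and 31-2 come from the mixed-marker cluster. WT 31-1 holds Cyp2a4 at 3373 CPM, within the range of the hKO clusters (1244 to 5382 CPM), and WT 31-2 at 5728 CPM, above that range. Cyp3a11 is at 2.47 and 3.43 CPM in WT 31-1 and 31-2, below all hKO clusters.

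The hKO clusters differed in level and less in composition. Members made up 2.33% of UMIs in cluster 22, 1.33% in cluster 19 and 0.579% in cluster 26, and Cyp2a5 stood at 6640, 3262 and 1259 CPM. Set against the 12 hepatocyte markers the range was narrow, at 15.5, 13.2 and 13.1 P450 UMIs per 100 marker UMIs. WT cluster 25 had 0.127% and 1.63 per 100, while WT 31-1 and 31-2 had 0.475% and 0.798%, or 13.8 and 9.41 per 100. Per marker UMI WT 31-2 lay between cluster 25 and the hKO clusters, and by share of UMIs it lay within the hKO range. In WT 31-2 71.8% of the P450 UMIs were Cyp2a4, against 23.3% in WT cluster 25 and 22.7%, 23.1% and 21.5% in hKO clusters 19, 22 and 26. By cell, 32.9% of the 322 cells of WT cluster 25 had no P450 UMI, against 0.701% in hKO cluster 19, whose cells were shallower (medians 1309.5 and 923.5 UMIs). The median mitochondrial share of cells was 11.4% in WT cluster 25, 3.72% in WT 31-2, and 21.4%, 17.1% and 13.7% in the hKO clusters, and its part in these levels was not tested.

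**Figure D4:**
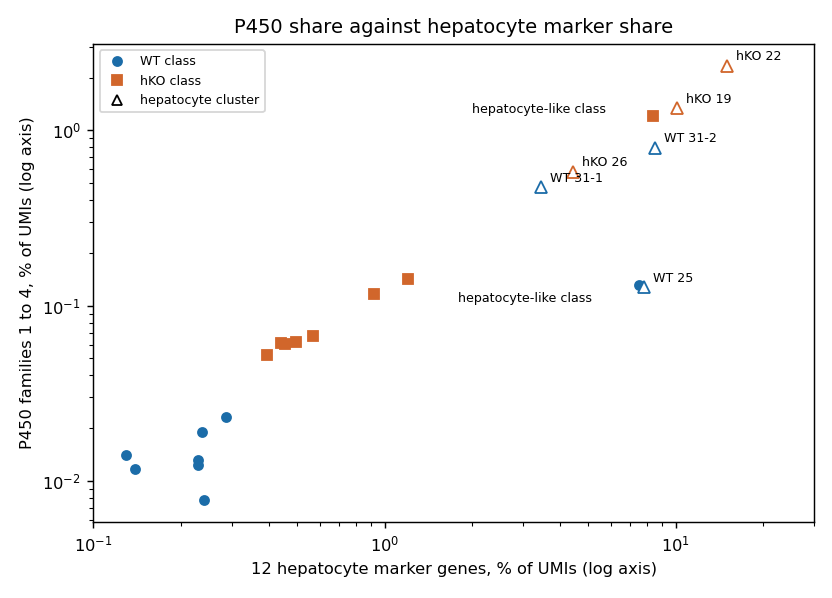
P450 families 1 to 4 (y axis, % of UMIs) against 12 hepatocyte markers (x axis, % of UMIs), both on log axes. Filled symbols are cell classes of WT (blue circles) and hKO (orange squares), and open triangles are hepatocyte groups. WT cluster 25, at 7.81% markers and 0.127% P450, lies below the hKO groups and WT 31-1 and 31-2.

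Cells thinned to 1000 UMIs each gave the same order for the named class (126 WT and 304 hKO cells were shallower and left out). A Cyp2a5 UMI was in 2.27% of WT and 76.2% of hKO hepatocyte-like cells (4.62% and 82.7% unthinned), and a Cyp3a11 UMI in 3.18% and 46.9% (5.20% and 56.1%). A Cyp2e1 UMI was in 10.9% and 2.12% (14.5% and 3.71%). T-like cells, which lack these enzymes, gave the background at the same thinned depth: 0.196% and 16.4% for Cyp2a5 (median depths 3807 and 3764 UMIs), and 0.0655% and 3.60% for Cyp3a11. The background of the hKO library was thus the higher one, and hepatocyte-like shares stood above it in both libraries.

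Free RNA was followed through the other classes. Of the 52 members 32 had their highest level in hepatocyte-like cells of both libraries, among 11 classes of at least 100 cells. In the other 10 classes these 32 summed to 0.708 to 0.810 of the UMIs that the hepatocyte markers in those cells would bring along in hKO, and to 0.752 to 1.16 in WT. For between 27 and 32 of the 32, the lower end of the counting interval did not exceed that expectation in each class and library. Members observed above it can be among them, such as Cyp2a12 in WT T-like cells (18 UMIs, 14.5 expected). Low counts meet this rule easily, so it is a weak check. The lower end did exceed the expectation for 5 members in WT endothelial-like cells and 4 in WT B-like cells. In any other class and library it did so for at most 2. With that limit, only members within the expectation are read as background there. Hepatocyte markers made up 0.228% of T-like UMIs in WT and 0.495% in hKO. Per 1000 marker UMIs in the lymphoid classes, Cyp3a11 was at 0.480 in WT and 7.11 in hKO, Cyp2f2 at 0.137 and 7.27, and Cyp2e1 at 0.240 and 0.172. Per marker UMI, therefore, free RNA differed between the libraries for Cyp3a11 and Cyp2f2 as the hepatocyte-like cells did.

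A set of 9 members was highest outside hepatocyte-like cells in both libraries. Cyp4b1, which oxidizes medium-chain fatty acids and is known from lung, was an endothelial-like gene: 3765 UMIs (436 CPM) in WT and 426 (152 CPM) in hKO, a log2 ratio of -1.52 (-1.67 to -1.38). Within endothelial-like clusters its level was lower in hKO in each of 5, from 551 to 200 CPM in cluster 4 (led by Adam23 and Stab2) and from 136 to 80.3 CPM in cluster 32 (led by Igfbp3 and Ly6c1). Cyp1b1, an estrogen-oxidizing enzyme, was held almost wholly by 1 endothelial-like cluster, 37, led by Rspo3 and Pcdh9 with Vwf: 72 of 72 endothelial-like UMIs in WT (85 cells, 118 CPM) and 45 of 48 in hKO (34 cells, 226 CPM). No hepatocyte-like cell had a Cyp1b1 UMI, which allows up to 3 counts in 778230 and in 3704064 UMIs.

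Some Cyp4f genes, whose family degrades leukotrienes and other lipids, were highest in blood cell classes. Cyp4f18, an omega-oxidase of leukotriene B4, was highest of the compared classes in neutrophil-like cells, at 364 CPM (402 UMIs) in WT and 294 CPM (204 UMIs) in hKO, a log2 ratio of -0.31. Monocyte-like cells had 124 and 100 CPM and B-like cells 95.4 and 78.5 CPM. A mast cell or basophil-like cluster of 34 WT and 29 hKO cells, too small for the comparison of classes, stood higher, at 646 and 527 CPM. Cyp4f16 was highest in monocyte-like cells (58.6 and 61.5 CPM) and Cyp4f13 in plasmacytoid dendritic-like cells (43.7 and 30.5 CPM). Cyp4f13 was not particular to them: hepatocyte-like cells of hKO had 29.7 CPM (110 UMIs), and the mixed-marker cluster of WT had 57.8 CPM. Cyp2r1, which starts the activation of vitamin D, was highest in B-like cells (18.2 and 12.6 CPM). Cyp2s1 in conventional dendritic-like cells (12 and 18 UMIs), Cyp2j9 in endothelial-like cells (41 and 15) and Cyp2c69 (1 to 6 UMIs in its highest class) were low. Cyp2s1 was not particular to dendritic-like cells, which had 3.32 CPM in WT. The mixed-marker cluster had 9.26 CPM (37 UMIs) in WT and 0 UMIs in hKO. For each of these 7 genes the estimated ratio was within 1 on the log2 scale in its highest class. The intervals of Cyp2r1 (-1.13 to 0.05), Cyp2s1 (-0.85 to 1.47) and Cyp2j9 (-0.79 to 1.06) passed 1 in size. So did those of Cyp2c69, highest in B-like cells in WT (-2.65 to 1.69) and in neutrophil-like cells in hKO (-5.63 to 6.96, from 1 UMI in each library).

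The remaining 11 members had a different highest class in each library, with hepatocyte-like cells taken from the named clusters only. For Cyp4v3 that was macrophage-like cells in WT, at 44.5 CPM, and hepatocyte-like cells in hKO, while the macrophage-like level of 48.2 CPM in hKO was close to that of WT. With the subcluster WT hepatocyte-like cells had Cyp4v3 at 68.9 CPM (174 UMIs), above the macrophage-like cells, so the highest class was then the same in each library. Cyp2d22 was highest in endothelial-like cells in WT (56.0 CPM, and 33.9 in hKO) and in hepatocyte-like cells in hKO. In the named clusters the hepatocyte-like level, not the other class, made the change of order. Cyp4a12b, Cyp4a14, Cyp2d12, Cyp3a57 and Cyp4f14 had no UMI in WT hepatocyte-like cells, and in hKO those cells were their highest class.

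**Figure D5:**
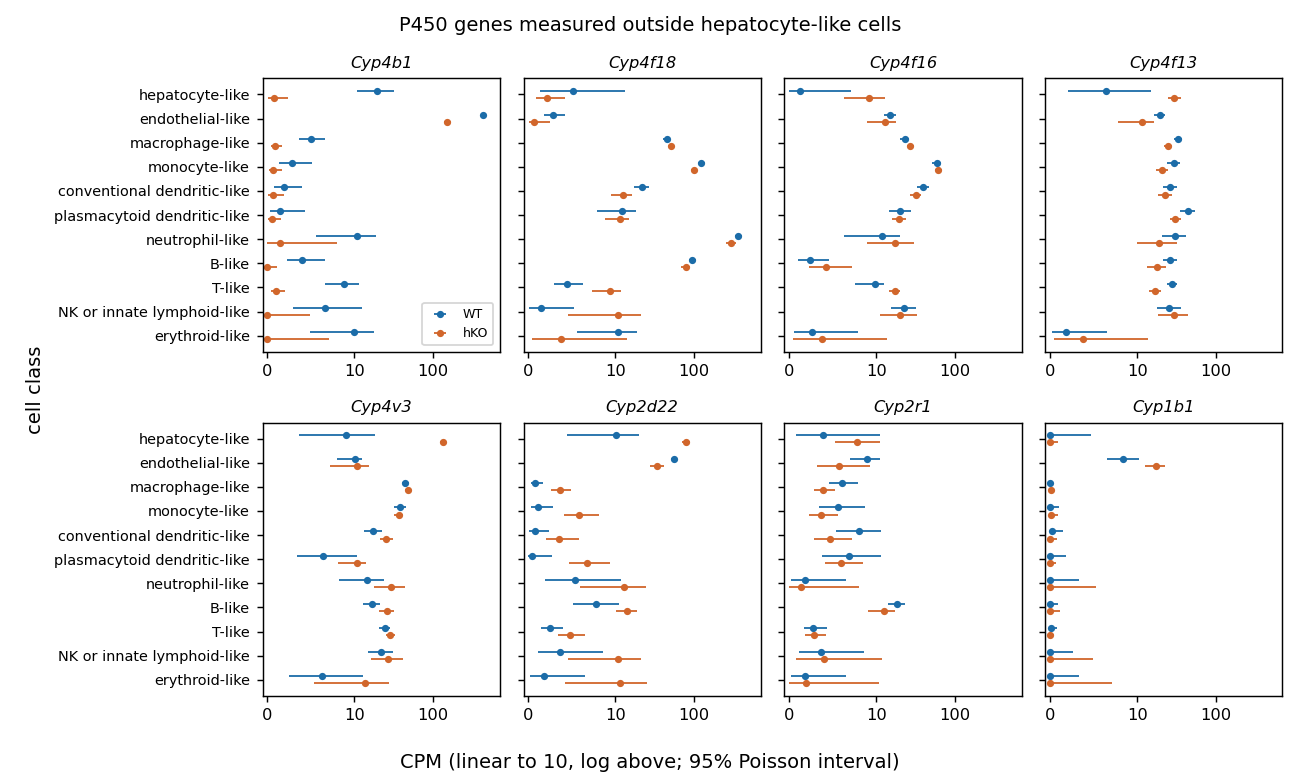
CPM of 8 members in 11 cell classes (y axis) in WT (blue) and hKO (orange). The x axis is linear to 10 CPM and logarithmic above, and bars are 95% Poisson intervals. Cyp4b1 is highest in endothelial-like and Cyp4f18 in neutrophil-like cells, and Cyp4b1 is lower in hKO endothelial-like cells (152 CPM) than in WT (436 CPM).

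Genes that serve or regulate P450 enzymes did not move as one group. Of 5 redox partners at the level, 2 were higher in hKO, 2 lower and 1 neither. Por was at 8.99 CPM (7 UMIs) in WT and 158 CPM (585 UMIs) in hKO, a log2 ratio of 4.13, and Pgrmc1, a heme-binding partner, at 149 and 1490 CPM (3.32). Cyb5a, cytochrome b5, was at 4799 and 1137 CPM (-2.08), and Cyb5b at 158 and 53.5 CPM (-1.56). With the subcluster Pgrmc1 (2.47) was the 1 of 5 that was higher and 0 were lower, with Por at 0.995, Cyb5a at -0.99 and Cyb5b at -0.95. Of 8 heme synthesis and breakdown genes at the level 0 were higher and 4 lower, Alad (-1.76) and Hmox2 (-1.64) furthest, and with the subcluster 1 of 6 was higher (Blvrb, 1.22) and 1 lower (Hmox2, -1.35). The medians of these lists, -0.30 and -0.95, stand beside -0.53 for all genes, of which 20.3% were higher and 32.3% lower (10.9% and 35.7% with the subcluster).

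Of 12 receptors and transcription factors at the level 0 were higher in hKO and 6 lower, with a median of -0.97, and with the subcluster 0 of 15 and 8, against 35.7% of all genes lower. Nr1i3 (CAR), the receptor behind much Cyp2b and Cyp2c induction, was at 60.4 CPM in WT and 9.45 CPM in hKO, a log2 ratio of -2.68, and Nr0b2 and Foxa3 followed at -1.61 and -1.36. Nr1i3 was at 57.4 CPM in WT cluster 25, 6.86 CPM in WT 31-2 and 12.8 CPM in hKO cluster 26. With the subcluster Nr1i3 was under the level (23.4 and 9.42 CPM, -1.31), and Nr0b2 and Foxa3 were at -1.34 and -1.58. Hnf4a was at 162 and 110 CPM (-0.56) and, with the subcluster, at 362 and 110 CPM (-1.72), which was then called lower. Ppara, the receptor behind Cyp4a induction, was at 102 and 106 CPM (0.07) and, with the subcluster, at 151 and 107 CPM (-0.50).

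Other targets of these receptors gave mixed counts. Among all genes at the level, 20.3% were higher and 32.3% lower, and with the subcluster 10.9% and 35.7%. Of 9 further PPAR alpha targets 5 were higher (Fgf21 3.45, Vnn1 2.80, Creb3l3 2.13) and 2 lower (Plin2 -1.42, Acaa1b -1.18). With the subcluster 3 of 10 were higher (Fgf21 4.56, Ehhadh 1.85, Vnn1 1.80) and 2 lower (Acot1 -1.86, Plin2 -1.34), and Creb3l3 (0.31), Cpt1a (-0.47) and Acaa1b (-0.22) were not called. Of 7 further CAR, PXR and AhR targets 4 were higher, with the transporters Abcc2 (4.10) and Abcc3 (2.82) and the retinal dehydrogenase Aldh1a1 (2.24) beside Por, and 0 were lower. With the subcluster 3 were higher, Gstm3 (1.85), Gsta1 (1.62) and Aldh1a1 (1.28), and 0 lower, while Abcc2 (-0.41), Abcc3 (0.42) and Por were not called. None of the 3 listed AhR-responsive genes (Cyp1a1, which is not among the 52 members, Cyp1a2 and Cyp1b1) reached the level. Of the 5 listed CAR and PXR-responsive genes 3 did (Cyp2a5, Cyp2c29 and Cyp3a11), and all 3 were higher in both forms. The other 2 were low in both forms: Cyp2b10, not among the 52 members, had 0 UMIs in WT and 5 in hKO, and Cyp2c55 had 1 and 5. Among P450 genes of other families Cyp7b1, an oxysterol hydroxylase, was the one at the level, with 2 and 202 UMIs (4.41, and 3.65 with the subcluster).

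Lists of zone and sex genes outside the P450 families did not share one direction with the members. Their counts stand beside 20.3% higher and 32.3% lower among all genes at the level, and 10.9% and 35.7% with the subcluster. Of 8 periportal genes 1 was higher (Hsd17b13, 3.04) and 5 lower (Ass1 -2.63, Arg1 -2.36 and Pck1 -2.28 furthest), while Cyp2f2, the periportal member, was higher. With the subcluster 0 were higher and 6 lower (Cps1 -2.49 and Ass1 -2.41 furthest), and Hsd17b13 (0.88) and Pck1 (-0.91) were not called. Of 3 pericentral genes 2 were lower (Lect2 -3.93, Oat -2.31), with Glul at 0.04. With the subcluster Glul (1.09) was the 1 gene at the level and was higher. Lect2 (44.3 CPM in WT, -2.46) and Oat (33.2 CPM in WT, -0.86) then fell under the level but kept their direction. Of 4 male-biased genes 2 were higher (Mup20 3.99, C8a 1.70), the same 2 as with the subcluster (2.56 and 1.96). No female-biased gene of that list reached the level in either form.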

How the data were processed

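The members and lists were chosen with earlier results of these data known. The deposited values are UMI counts of each gene in each barcode, without normalization, made with Cell Ranger 7.1.0 per the file headers. The submitters' processing notes name Cell Ranger, R 3.0, Seurat 3 and the build mm9. No source used here names the annotation release. The other deposited columns hold gene and barcode names.

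Barcodes with at least 200 genes, 500 UMIs and at most 25% mitochondrial UMIs were kept. Scrublet called 4.00% of WT cells doublets (394 removed), but 0.0175% in hKO, under a limit of 0.5%, so the 9.16% with the highest scores were removed there (1049). Cells of both libraries were clustered jointly, with no integration, on 2000 variable genes (log of 1 plus counts per 10000, 30 principal components, 15 neighbors, Leiden resolution 2.0, seed 1; scanpy 1.11.5 and leidenalg 0.10.2), leaving out all Cyp genes, Por, Fabp5 and mitochondrial, ribosomal-protein and immunoglobulin genes. Clusters were named from markers of 16 types, with at least 3 raised. hKO cluster 19 had 25.4% of the median depth of its library and WT cluster 25 had 34.3%.

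UMIs were summed per class and library. Intervals are exact Poisson for CPM, exact conditional binomial for ratios and Clopper-Pearson for shares, at 95%. A count of 0 was set to 3 counts over the class for a bound. Every member at 50 CPM or more in a library is named, members highest elsewhere in both libraries are named with that class, and 2 to 4 genes with the largest ratios stand for each list. Of 13 genes in the list of other P450 families 12 had a feature under their symbol (Cyp5a1 had none). Scripts were tested on simulated data. Promoters are from RefSeq (GRCm38.p6) and 3′ ends from GENCODE M21, both of another build than the one noted, and were used only for sequence. Of the 52 members 9 have a 3′ end at least 95% identical to another member. Alternatives varied cell filters, doublets, clustering, cell choice, scaling, floors and free RNA. No sample was left out.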

Additional observations from a re-analysis of the deposited data

How the results depend on the processing

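No paired analysis was possible because each group has 1 library. The sum of the members, 3.20, was 0.49 at a mitochondrial limit of 10%, 1.09 at 50%, 1.01 with at least 500 genes and 1000 UMIs, 1.12 with doublets kept, 1.09 when clustered with P450 genes, 1.19 for a gate of 5% hepatocyte marker UMIs, 1.28 with the mixed-marker cluster added, 1.19 without the largest cluster of each library (3 WT cells left), 3.36 with cells weighted equally, 3.74 when centred on the median gene and 1.02 with the subcluster. It was 3.20, 3.26 and 3.24 at resolution 1.0, without abundant kinds and with free RNA subtracted. The 19 higher members became 10 at a mitochondrial limit of 10%, 1 without the largest cluster and 29 with no floor, and numbered 13 to 23 otherwise. The 1 lower member, Cyp2e1, became 2 at a mitochondrial limit of 10% (Cyp2a4 and Cyp2c68, so that Cyp2a4 was there called lower), 2 with abundant kinds left out (with Cyp2c23), 3 with a floor of 20 CPM and 4 with none. It became 0 at a limit of 50%, with 500 genes and 1000 UMIs, doublets kept, P450 genes used, the mixed-marker cluster added, without the largest cluster, centred, and at a log2 ratio of 2.

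Called members and subfamilies turned as follows, in the order mitochondrial limits of 10% and 50%, 500 genes and 1000 UMIs, doublets kept, clustered with P450 genes, gate, mixed-marker cluster added, and subcluster added. Cyp2a4 was at -1.07, -0.59, -0.63, -0.51, -0.54, -0.44, -0.29 and -0.58. Cyp2b9 was at -0.59, -0.71, -0.49, -0.48, -0.49, -0.73, -0.25 and -0.70, and the Cyp2b sum at -0.56, -0.72, -0.50, -0.49, -0.50, -0.75, -0.27 and -0.72. Cyp2e1, alone in its subfamily, was at 0.30, 1.20, 0.82, 1.02, 2.78, 1.27 and 0.55 from the limit of 50% on. At 10% the Cyp2a sum was at -0.015, the Cyp4f sum at -0.25, Cyp4v3 (also the Cyp4v sum) at -0.069, Cyp3a13 at -0.35 and Cyp2c70 at -0.059. Cyp3a13 was at -0.022 at 50%, Cyp2c70 at -0.068 in the gate and Cyp2d22 at -1.44 without the largest cluster. The cause was not tested. Members that were not called turned too: in that order Cyp4f17 (2.33) was at -1.77, -2.03, -2.03, -2.06, -2.05, -1.71, -1.80 and -1.43, Cyp4f16 (2.84) ran from -1.38 to -0.28 and Cyp4f13 (2.21) from -1.22 to -0.095. Cyp2c68, Cyp4a31, Cyp2b13, Cyp2u1, Cyp4f18, Cyp2j6, Cyp4a32 and Cyp2c69 also changed sign in 1 or more settings. WT depth, 1016 P450 UMIs in the named clusters, limits members with few WT UMIs.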

Other observations

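The libraries could also be compared without any choice of cells. Over all barcodes, P450 families 1 to 4 had 36534 UMIs in WT and 141167 in hKO, or 8.41 and 13.4 per 100 hepatocyte marker UMIs. These sums include members highest outside hepatocyte-like cells, so both values depend on the cell mix. Cyp4b1 had 4583 UMIs in WT and 664 in hKO, Cyp4f18 2252 and 2480, Cyp4f13 1533 and 1494, and Cyp4f16 1083 and 1565. Of the WT sum, 15467 UMIs were Cyp2a4. The unnamed and hepatocyte-named subclusters of the mixed-marker cluster held 4100 and 10016 of those. Named hepatocyte-like cells held 2.78% of the summed P450 UMIs in WT and 31.6% in hKO. Per 1000 marker UMIs Cyp2a5 was at 1.21 in WT and 32.7 in hKO, Cyp3a11 at 0.304 and 9.50, Cyp2f2 at 0.161 and 7.90, Cyp2c29 at 0.0438 and 3.81, and Cyp4a12a at 0.0184 and 2.27. These 5 drug and lipid enzymes, already called higher in both forms above, were higher in hKO on this scale too. How many of all members or of all genes were higher on it was not counted. Cyp2a4 was at 35.6 and 26.7, Cyp2b9 at 2.26 and 1.25, and Cyp2e1 at 0.523 and 0.351, each lower in hKO.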
